A study of Mus musculus with 3 samples.

Results

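The genes of central carbon metabolism were examined by total RNA-seq of mouse primary cells. The cells came from strain C57BL/6NJ and were labelled as T-helper 1 (Th1), helper T cells known for interferon gamma. The set was a named list of 47 genes, found by symbol among the 50600 features of the count tables: 18 genes of glycolysis, 7 of the pentose phosphate pathway and 22 of pyruvate dehydrogenase and the citrate cycle. The series held 1 group of 3 libraries, biological replicates 1, 2 and 3, from separate biosamples that share a donor identifier, with no other group analysed here. The header of each table carried a time of 0 hours, and age and sex were not recorded. The libraries held 3647366, 4305077 and 2510319 counted fragments in replicates 1, 2 and 3. Any p-value here speaks of the spread among the 3 libraries alone, part of which may be technical.

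Glycolysis splits glucose into pyruvate in the cytosol and yields ATP, and lactate dehydrogenase turns pyruvate into lactate while restoring NAD. The pentose phosphate pathway draws off glucose 6-phosphate to make NADPH and ribose. Pyruvate dehydrogenase carries pyruvate into the mitochondrial citrate cycle, which feeds electrons to the respiratory chain. Resting T cells are known to rely largely on mitochondrial oxidation, and activated effector T cells, Th1 cells among them, to raise glycolysis. Many steps have isoenzymes, related proteins from separate genes that catalyse the same reaction in different tissues or compartments.

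Comparing isoenzymes needs fragments that tell the genes apart, so the coding regions were compared first (longest coding region of each gene in GENCODE M21 transcripts, mm10). In the 12 isoenzyme pairs the longest run of identical bases was between 11 and 27 bases. Examples are shown for the lactate dehydrogenases, the hexokinases and the phosphofructokinases, with the shared run in capitals and 9 bases on either side in lower case.
Ldha: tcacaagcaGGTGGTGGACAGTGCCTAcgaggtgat
Ldhb: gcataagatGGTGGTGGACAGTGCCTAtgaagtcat
Hk1: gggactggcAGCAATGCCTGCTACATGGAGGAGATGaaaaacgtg
Hk2: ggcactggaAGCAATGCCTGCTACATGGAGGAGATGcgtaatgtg
Pfkl: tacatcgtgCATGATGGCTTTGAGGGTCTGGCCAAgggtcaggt
Pfkm: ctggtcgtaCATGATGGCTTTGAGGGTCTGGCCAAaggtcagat

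Copies elsewhere in the genome were a larger source of identical sequence. Of the 47 coding regions, 16 shared at least 1 word of 50 bases with a transcript of a gene away from their own locus, and 13 shared over 10% of their words, of which 10 were glycolysis genes, 1 was Taldo1 and 2 were citrate cycle genes. The shares were 100% for Pgk1 and Pgam1, 94.2% for Gapdh, 83.3% for Eno1, 57.7% for Suclg2, 46.9% for Pkm, 43.1% for Pdhb, 35.6% for Ldhb, 32.4% for Gpi1 and 28.4% for Ldha. The Gapdh words recurred in 221 other genes, 212 of them annotated as pseudogenes. The counting command carries no option for fragments that map to several places, so the levels of these genes are uncertain and may be too low.

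The counted strand sets a further limit on every level below. Fragments were counted for a gene only where their first read lay on the gene's strand, and the name of the counting run calls the reads stranded. Of the 2 mitochondrial genes mt-Nd6 and mt-Co1, which lie on opposite strands, mt-Nd6 held 20191, 20392 and 21040 counts over 519 bases in replicates 1, 2 and 3, and mt-Co1 held 9015, 14727 and 2276 counts over 1545 bases. Features with exons that overlap an exon on the other strand held 63.1%, 53.8% and 76.5% of all counts. The strand of mt-Nd6 is known to carry little other coding sequence, and mt-Nd6 stood above mt-Co1 per base in every library, the reverse of the usual order. Such counts look as if the strand setting may be opposite to the orientation of the kit, which the sources used here do not give, and this was not tested. Were it so, the levels below, and words such as present or highest, would describe fragments from the strand opposite each gene. A level is therefore a level on the counted strand, and 13 of the 47 genes, with such an exon overlap, are marked by the words exon overlap. Of all protein-coding genes, 22.1% had one.

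T cell markers were abundant, and Th1 markers were mixed, with Tbx21 and Ifng, which define the type, near 0 against the label. All 9 T cell markers and all 6 naive T cell markers reached 1 TPM in every library, with summed levels of 1249 to 4732 TPM and 689 to 2207 TPM. Of 8 Th1 markers 3 did, with summed levels of 34.7 to 79.7 TPM, and Tbx21 and Ifng each had 1, 3 and 0 counts. Of the defining markers of other cell types, Cd79b and Ms4a1 of B cells, Lyz2, Cd14 and Adgre1 of myeloid cells, Ncr1 of NK cells, Hba-a1 of erythroid cells and Col1a1 of stromal cells had at most 3 counts over the 3 libraries. The summed levels were 123 to 401 TPM for B cell markers, where Ighm held 842, 1300 and 207 counts and Cd79a, the partner of Cd79b, held 91, 138 and 108, and 70.0 to 97.0 TPM for myeloid markers, where Csf1r (exon overlap) held 744, 638 and 699. NK, erythroid and stromal markers summed to at most 7.57, 10.2 and 0.0809 TPM in any library, with 2 of 7 B cell, 2 of 7 myeloid, 1 of 3 NK, 1 of 3 erythroid and 0 of 3 stromal markers at 1 TPM in every library. The part of such cells in the levels below was not tested, and in bulk RNA fewer cells of a type and less RNA per cell cannot be told apart.

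Nearly all of the 47 genes were present. Levels are in TPM, the count per base of summed exon scaled to the same total in each library, given per replicate in the order 1, 2, 3 or as mean ± SD (n = 3 libraries). At least 1 TPM in every library was reached by 44 of the 47 genes, against 41.6% of all protein-coding genes, and at least 10 TPM by 24, against 16.5%. The exceptions at 1 TPM were Hk2, Hk3 and Aldoc, all isoenzymes of glycolysis. Every one of the 47 genes had its highest TPM in replicate 2, and 44 had their lowest in replicate 3. The median over the 8821 protein-coding genes that passed the low-count filter (edgeR filterByExpr) had the same order, at 13.9, 19.7 and 7.55 TPM. The order of the libraries is thus not particular to the 47 genes. In these TPM the share of counts on exon overlap features, highest in replicate 3 and lowest in replicate 2, enters through the total, and its part in the order of the libraries was not tested.

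**Figure D1:**
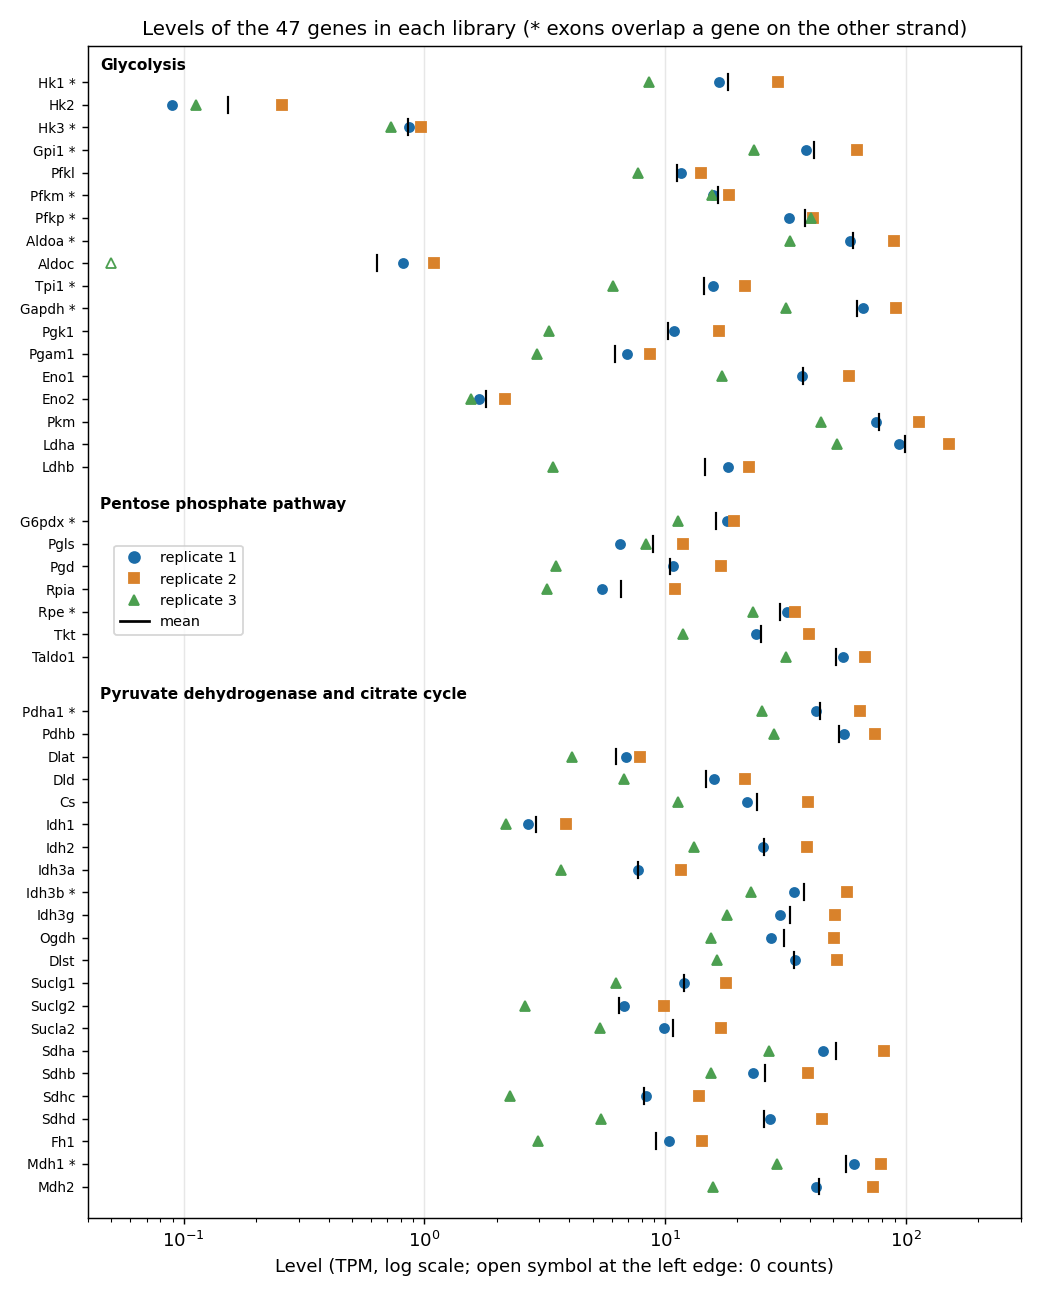
Level in TPM (log scale) of each of the 47 genes in the 3 libraries, grouped by pathway, with the mean as a black bar and an asterisk where exons overlap a gene on the other strand. Ldha and Pkm lie farthest right in every library, Hk2 lies at or below 0.257 TPM, and replicate 3 lies left of replicate 2 for all genes.

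Among the genes that trap and rearrange glucose, Hk1 carried the hexokinase signal. Hk1 (exon overlap), which encodes the widely expressed hexokinase that phosphorylates glucose, had 270, 494 and 109 counts and 16.8, 29.6 and 8.55 TPM. Hk2, the inducible hexokinase of muscle, tumours and activated lymphocytes (chromosome 6, 82725025 to 82774454), had 1, 3 and 1 counts, and 3 counts would be 0.267, 0.257 and 0.336 TPM there. Hk3 (exon overlap), a hexokinase of myeloid cells, had 6, 7 and 4 counts and stood at 0.854 ± 0.122 TPM. The Hk1 range thus lay above both other hexokinases in every library, and Hk2 was at or under the level of 3 counts in every library. Gpi1 (exon overlap), which isomerises glucose 6-phosphate, stood at 38.6, 62.7 and 23.3 TPM.

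Phosphofructokinase, the committed step, was split between 3 genes. Pfkp (exon overlap), the platelet type, had 32.7, 41.2 and 40.5 TPM. Pfkm (exon overlap), the muscle type, had 15.8, 18.5 and 15.6 TPM, and Pfkl, the liver type, had 11.7, 14.1 and 7.72 TPM. Pfkp was the highest of the family in each library, and its range did not overlap those of the other two. In TPM, Pfkm and Pfkp had the smallest SDs of the genes above 1 TPM, 9.59% and 12.3% of the mean, but on CPM both differed between libraries and were highest in replicate 3. Pfkp moved among the 47 genes to rank 3 in replicate 3, against rank 15 in replicate 1 and rank 18 in replicate 2.

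The genes that cleave and oxidise the sugar phosphates followed. Aldoa (exon overlap), the aldolase of muscle and most other cells, had 58.9, 89.5 and 33.1 TPM. Aldoc, the brain aldolase, had 5, 7 and 0 counts, and the 0 in replicate 3 allows up to 0.615 TPM by a floor of 3 counts. Tpi1 (exon overlap), triose phosphate isomerase, stood at 14.5 ± 7.80 TPM. Gapdh (exon overlap), glyceraldehyde 3-phosphate dehydrogenase, stood at 66.2, 91.0 and 31.9 TPM, rank 3 of the 47 in replicates 1 and 2 and rank 5 in replicate 3. Gapdh is often used as a constant reference in other work. Here it differed between libraries beyond counting error (Poisson chi-square test, Benjamini-Hochberg adjusted p = 0.0120), and not with library sizes set on genes without exon overlap (adjusted p = 0.559).

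In the ATP-yielding lower part, Pgk1, phosphoglycerate kinase, stood at 10.9, 16.8 and 3.28 TPM, and Pgam1, phosphoglycerate mutase, at 6.96, 8.64 and 2.92 TPM. All 50-base words of both coding regions recur in pseudogenes. Eno1, the widely expressed enolase, had 37.2, 58.0 and 17.2 TPM, and Eno2, the neuronal enolase, had 1.69, 2.17 and 1.56 TPM. Pkm, which encodes muscle-type pyruvate kinase, stood at 75.1, 113.6 and 44.6 TPM, the next highest TPM of the 47 after Ldha in every library. Pkm shares 767 exonic bases (15.3% of its length) on the same strand with Gm49759, where a fragment is by default counted for neither gene. Its 2 splice forms, M1 and M2, cannot be separated in counts per gene.

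Ldha had the highest TPM of the 47 genes in every library, but the order of the top genes depends on the length used. Pkm had more counts in every library, with 707, 1113 and 333. The summed exon length was 2.91 times the longest coding transcript for Gapdh, 2.06 times for Pkm and 1.82 times for Ldha. Ldha, the lactate dehydrogenase subunit of muscle and of glycolytic cells (chromosome 7, 46841475 to 46855627), had 582, 986 and 256 counts and 93.4, 152 and 51.8 TPM. Ldhb, the subunit of heart (chromosome 6, 142490249 to 142507957), had 54, 69 and 8 counts and 18.3, 22.4 and 3.41 TPM. The Ldha range lay wholly above the Ldhb range. Ldha made up 83.6%, 87.1% and 93.8% of the summed TPM of both genes.

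All 7 pentose phosphate genes reached 1 TPM in every library. In the oxidative branch, which makes NADPH, G6pdx (exon overlap), glucose 6-phosphate dehydrogenase, stood at 18.1, 19.4 and 11.3 TPM. Pgls, the lactonase that follows, stood at 6.48, 11.9 and 8.34 TPM, and Pgd, 6-phosphogluconate dehydrogenase, at 10.8, 17.1 and 3.53 TPM. Pgls lies partly on the same exons as Fam129c (776 bases on the same strand), and a fragment in that stretch is not counted for either gene by default.

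In the non-oxidative branch, which makes ribose and returns sugars to glycolysis, Taldo1, transaldolase, was the highest with 55.1, 67.7 and 31.7 TPM. Rpe (exon overlap), the ribulose phosphate epimerase, had 32.3, 34.6 and 23.2 TPM, and Tkt, transketolase, had 23.99, 39.5 and 11.9 TPM. Rpia, the ribose phosphate isomerase, was the lowest of the 7 by mean, at 6.55 ± 3.97 TPM. Its range of 3.25 to 10.95 TPM overlapped those of Pgls and Pgd, so the order of these 3 is not separated by the spread between libraries. The place of Rpia also depends on the length used. Its summed exon length was 2.93 times the longest coding transcript, against 1.16 times for G6pdx.

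All 22 genes of pyruvate dehydrogenase and the citrate cycle reached 1 TPM in every library. Of the pyruvate dehydrogenase complex, the E1 subunit genes Pdha1 (exon overlap) and Pdhb stood at 44.2 ± 19.8 and 52.7 ± 23.0 TPM, and the shared dihydrolipoamide dehydrogenase gene Dld at 14.7 ± 7.46 TPM. Dlat, the acetyltransferase core, had 6.85, 7.83 and 4.11 TPM and was the lowest of the 4 in every library. The highest of the 4 exceeded the lowest by 8.10, 9.48 and 6.91 times in replicates 1, 2 and 3.

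At the entry of the cycle, Cs, citrate synthase, had 21.9, 39.3 and 11.3 TPM. The 3 subunits of the NAD-linked isocitrate dehydrogenase were unequal: the accessory subunit genes Idh3b (exon overlap) and Idh3g stood at 37.9 ± 17.4 and 33.1 ± 16.7 TPM, and the catalytic subunit gene Idh3a had 7.75, 11.7 and 3.69 TPM. The Idh3a range lay below the ranges of both others. Of the NADP-linked enzymes, Idh2, in mitochondria, had 25.5, 39.0 and 13.2 TPM, and Idh1, in the cytosol, had 14, 21 and 9 counts and 2.68, 3.87 and 2.17 TPM.

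The oxoglutarate dehydrogenase genes Ogdh and Dlst were close, at 31.1 ± 17.8 and 34.3 ± 17.7 TPM, and their ranges overlapped. The succinate-CoA ligase genes were lower in mean TPM. Suclg1, the shared alpha subunit, stood at 12.04 ± 5.84 TPM and Sucla2, the ADP-forming beta subunit, at 10.7 ± 5.88 TPM. Suclg2, the GDP-forming one, stood at 6.44 ± 3.68 TPM. The summed exon length was 3.04 times the longest coding transcript for Suclg1, 1.32 times for Ogdh and 1.00 times for Dlst. The place of Suclg1 below Dlst therefore depends on the length used. Of succinate dehydrogenase, which is also complex II of the respiratory chain, the flavoprotein gene Sdha had 45.4, 81.5 and 27.1 TPM. The iron-sulfur subunit gene Sdhb had 23.3, 39.2 and 15.5 TPM.

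The membrane anchors of succinate dehydrogenase had the largest spread of the 22 genes, with SDs of 71.0% (Sdhc) and 76.4% (Sdhd) of the mean. Sdhc had 51, 88 and 11 counts and 8.34, 13.8 and 2.26 TPM. Sdhd had 63, 108 and 10 counts and 27.2, 44.8 and 5.44 TPM, so replicate 3 rests on few counts for both. Sdha exceeded Sdhc by 5.45, 5.90 and 11.9 times in replicates 1, 2 and 3, with the widest gap in replicate 3. At the end of the cycle, Fh1, fumarase, had 10.3, 14.3 and 2.96 TPM. Mdh1 (exon overlap), cytosolic malate dehydrogenase, had 61.3, 78.7 and 29.2 TPM, and Mdh2, the mitochondrial enzyme, had 42.4, 73.2 and 15.8 TPM.

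The 3 pathways were compared by the median level of their genes, and no order of pathways held under every scaling. The median gene of the citrate cycle had 24.4, 39.3 and 12.3 TPM, that of the pentose phosphate pathway 18.1, 19.4 and 11.3 TPM, and that of glycolysis 16.3, 21.97 and 8.13 TPM. Over the 8821 protein-coding genes that passed the low-count filter (edgeR filterByExpr) the median was 13.9, 19.7 and 7.55 TPM. The pathway medians took all listed genes, and 3 of the 18 glycolysis genes did not pass that filter. Over 10% of the 50-base words recurred elsewhere for 10 of 18 glycolysis genes, 1 of 7 pentose phosphate genes and 2 of 22 citrate cycle genes. The part of either in the medians was not tested. On log2(TPM + 0.1) glycolysis minus the citrate cycle was −0.66 ± 0.15 (n = 3), lower in all 3 libraries, and on CPM (counts scaled to library size, with no length scaling) it was 0.040. The pentose phosphate pathway minus the citrate cycle was −0.52 ± 0.46, and 0.12 on CPM. Glycolysis minus the pentose phosphate pathway was −0.15 ± 0.32, with the sign changing between libraries. With the longest coding transcript as length, these 3 differences were −0.59, −0.10 and −0.49 in the same order.

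Summed levels weigh the highest genes most, and Ldha alone held 18.6%, 20.4% and 17.7% of the glycolysis sum. The sum was 502, 744 and 292 TPM for the 18 glycolysis genes, 152, 201 and 93.3 TPM for the 7 pentose phosphate genes, and 552, 863 and 280.0 TPM for the 22 citrate cycle genes. The glycolysis and citrate cycle sums were close in each library, with glycolysis below in replicates 1 and 2 and above in replicate 3. Together the 47 genes held 0.241%, 0.322% and 0.163% of all counts. Among features without exon overlap and outside the mitochondrial genome, the listed genes held 0.393%, 0.437% and 0.371% of counts, a narrower range. No test was made over these sums.

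Isoenzymes were then compared within each library, where library size cancels. In each of the 12 pairs the 3 libraries shared a sign, with the first-named gene higher in 7 pairs and the second in 5. The exact sign-flip permutation test over 3 libraries cannot go below p = 0.25 (two-sided), and all 12 pairs gave that value, so none could pass. Intervals are exact Clopper-Pearson 95% intervals on counts summed over the libraries and cover counting error only.

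Among the 12 pairs the widest gaps were those of Hk1 over Hk2 and Aldoa over Aldoc. Hk1 exceeded Hk2 by a log2 ratio of 6.07 ± 0.63 (n = 3), with 873 against 5 counts and a ratio per base of 122 (95% interval 52.1 to 377). The log2 ratio was 3.91 with a pseudocount of 1 and 6.99 with the longest coding transcript as length, so its size depends on these choices. Aldoa exceeded Aldoc by a ratio per base of 91.3 (52.1 to 177), and Hk1 exceeded Hk3 by 22.2 (13.8 to 38.2). Eno1 exceeded Eno2 by 21.4 (15.9 to 29.4), with log2 ratios of 4.38, 4.68 and 3.37. Eno1 shares 83.3% of its 50-base words with other genes and Eno2 none, so the size of this ratio is uncertain. Hk2 minus Hk3 was −1.97 ± 0.38, a difference that rests on 5 against 17 counts and was −0.69 with a pseudocount of 1. Over the pseudocount and length settings the log2 ratio ranged from 5.19 to 8.01 for Aldoa over Aldoc, 3.23 to 5.34 for Hk1 over Hk3 and 3.62 to 4.83 for Eno1 over Eno2. Outside the 12 pairs, Pgam2, the muscle mutase, had 78.4, 100.9 and 133.8 TPM on the counted strand, above Pgam1 in every library. All 50-base words of Pgam1 recur in pseudogenes, so its level may be too low. Pgam2 has the opposite-strand gene Dbnl within 5 kb, with 408, 615 and 186 counts. The order of Pgam1 and Pgam2 is therefore uncertain, and the source of the Pgam2 counts was not tested.

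Ldha exceeded Ldhb by log2 ratios of 2.35, 2.76 and 3.89 and a ratio per base of 6.60 (5.53 to 7.95). In the citrate cycle, Idh1 minus Idh2 was −3.02 ± 0.41, a ratio per base of 0.110 (0.0787 to 0.151). Sucla2 exceeded Suclg2 by 0.77 ± 0.24 on the log2 scale, a ratio per base of 1.66 (1.36 to 2.03). Over the same words Suclg2 shares 57.7% of its coding region with a pseudogene and Sucla2 none, so the ratio is uncertain. Over the same settings the log2 ratio ranged from 2.86 to 4.05 for Ldha over Ldhb, −3.32 to −2.68 for Idh1 over Idh2 and 0.57 to 1.16 for Sucla2 over Suclg2.

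Other pairs depended on the length used. Pfkl minus Pfkp was −1.80 ± 0.50 and Pfkm minus Pfkp −1.19 ± 0.16 on the log2 scale, and with the longest coding transcript as length they were −2.14 and −2.33. Pfkl minus Pfkm was −0.61 ± 0.34 with the summed exon length, and 0.19 with the longest coding transcript. Mdh1 minus Mdh2 was 0.51 ± 0.39 with log2 ratios of 0.53, 0.10 and 0.88, and −0.51 with the longest coding transcript. For these last pairs no order is given. The summed exon length was 0.982 to 3.55 times the longest coding transcript over the 47 genes, with a median of 1.59.

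**Figure D2:**
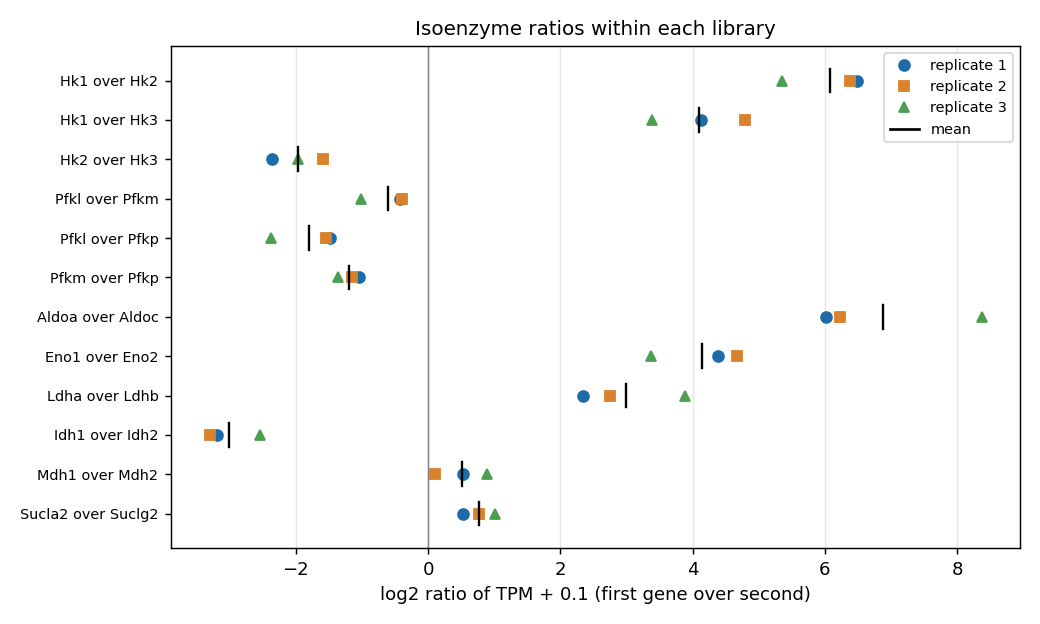
log2 ratio of TPM + 0.1, first gene over second, for 12 isoenzyme pairs, with 1 symbol per library and the mean as a black bar. All 3 symbols of each pair lie on the same side of 0, Mdh1 over Mdh2 in replicate 2 lying nearest to it at 0.10.

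For the 13 genes with exon overlap, the gene on the other strand was read in the same libraries. Gpi1 had 469, 792 and 225 counts, and Gm26762, a lincRNA that shares 741 exonic bases with it, had 3436, 3274 and 3807. Pdha1 had 298, 474 and 141 counts, and Map3k15, a kinase gene that shares 603 bases, had 2581, 2108 and 2501. Aldoa had 417, 660 and 186 counts, and Fam57b, which shares 25 bases, had 1646, 1458 and 1570. In these 3 loci the feature opposite the metabolic gene held more counts in every library, and it was highest relative to library size in replicate 3. The metabolic gene was lowest there, but lay close to replicate 1. Its log2 difference, replicate 3 minus replicate 1, was −0.01 for Gpi1, −0.12 for Aldoa and −0.03 for Pdha1. Of the 3 metabolic genes, Gpi1 differed between libraries beyond counting error (adjusted p = 0.00489), and Aldoa (0.0513) and Pdha1 (0.214) did not pass that test. With sizes from genes without exon overlap Gpi1 did not pass the Poisson chi-square test either (adjusted p = 0.171). Under those sizes the log2 difference, replicate 3 minus replicate 2, changed sign for all 3 genes. It turned to 0.05 from −0.27 for Gpi1, to 0.04 from −0.28 for Aldoa and to 0.12 from −0.20 for Pdha1.

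Of the 13 opposite features, 7 held more counts than the metabolic gene in every library, and 5 had a higher TPM in every library. Rpe had 189, 211 and 108 counts and Kansl1l, which shares 558 bases, had 313, 243 and 251. G6pdx had 105, 117 and 52 counts and Ikbkg, an NF-kappaB signalling gene sharing 418 bases, had 276, 366 and 202. Idh3b with Nop56 and Hk3 with Unc5a were the other two. In the other direction, Mdh1 had 296, 396 and 112 counts and Wdpcp 1, 1 and 0, and Tpi1 had 82, 116 and 25 counts and Spsb2 2, 1 and 2. Pfkp had 579, 759 and 568 counts and Pitrm1, which shares 372 bases, had 122, 211 and 60. Whether the counts of any of these genes come from the other strand's transcript was not tested.

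**Figure D3:**
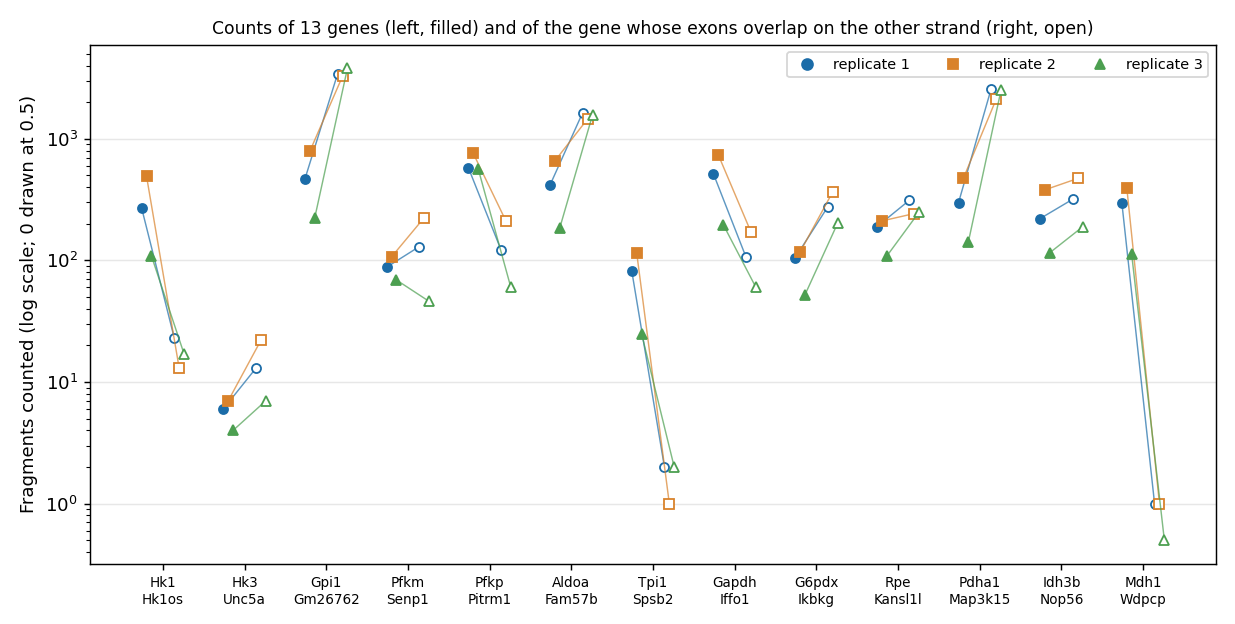
Fragments counted (log scale) for the 13 genes with exon overlap (left, filled) and for the gene on the other strand (right, open), with 1 line per library. The lines of Gpi1, Aldoa and Pdha1 climb in every library, those of Hk1, Tpi1, Gapdh, Pfkp and Mdh1 descend.

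To ask which genes differed between libraries by more than counting error allows, the 3 counts of each gene were tested with a Poisson chi-square test, and library sizes were TMM-scaled (trimmed mean of M-values). Of the 44 genes that passed the low-count filter, 22 differed at a Benjamini-Hochberg adjusted p under 0.05. Over all 10662 genes tested 62.4% did, and over protein-coding genes 57.2%, so the count among the metabolic genes is near the background and is no result about them. Called and lowest in replicate 3 were 18 of the 44 tested genes, against 27.3% of all tested genes and 38.1% of protein-coding ones without exon overlap. The count of 22 fell to 14 when library sizes were set on genes without exon overlap (53.6% of all genes). It was 8 of 44 without replicate 3 (28.1% of all genes) and 11 of 42 without replicate 2 (49.7% of all genes). With sizes from genes without exon overlap, 6 of the 44 tested genes were called and highest in replicate 3, against 36.5% of all tested genes, and 5 and 4 genes differed in the classes with an opposite gene within 5 kb and with none, against 40.7% of all genes of both classes. By class under the first sizes, 6 of 12 exon overlap genes differed, against 74.7% of all such genes, 7 of 19 with an opposite gene within 5 kb, against 54.3%, and 9 of 13 with none, against 52.7%.

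By pathway, 10 of 15 tested glycolysis genes, 5 of 7 pentose phosphate genes and 7 of 22 citrate cycle genes differed, against 62.4% of all tested genes. With sizes from genes without exon overlap the counts were 5 of 15, 4 of 7 and 5 of 22, against 53.6% of all genes, so the glycolysis count rests on the choice of library sizes. Of the tested genes, Sdhd, Sdhc, Mdh2, Fh1, Ldhb, Pgk1 and Pgd were more than 1 log2 unit lower in replicate 3 than in replicate 2. With sizes from genes without exon overlap, Sdhd (−1.49), Ldhb (−1.16) and Sdhc (−1.07) were still beyond 1 unit, and Pgk1, Pgd, Fh1 and Mdh2 were at −0.83, −0.78, −0.76 and −0.73. Under those sizes Sdhc, Fh1 and Pgk1 did not pass the test (adjusted p = 0.0745, 0.147 and 0.230 in the Poisson chi-square test). Sdhd had 16.3, 19.8 and 5.35 CPM, a log2 difference of −1.79 (replicate 3 minus replicate 2), from 63, 108 and 10 counts. Ldhb had 14.0, 12.6 and 4.28 CPM, a difference of −1.46, and Mdh2 had 73.6, 93.6 and 44.9 CPM, a difference of −1.05.

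In the other direction, 4 of the 44 tested genes were called and highest in replicate 3, against 32% of all tested genes. Pfkp had 149.96, 139.0 and 304 CPM, a log2 difference of 1.13, and Pfkm had 22.8, 19.6 and 36.9 CPM, a difference of 0.90. Rpe had 48.9, 38.6 and 57.8 CPM and Pgls 11.9, 16.1 and 25.1 CPM. Of these 4, Pfkp, Pfkm and Rpe have exon overlap, and Pgls lies next to no opposite gene within 5 kb. Over all tested genes with exon overlap the median difference was 1.00, over those with an opposite gene within 5 kb −0.28, and over those with none −0.45. The metabolic genes had medians of −0.24, −0.49 and −0.55 in the same 3 classes, from 12, 19 and 13 genes.

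**Figure D4:**
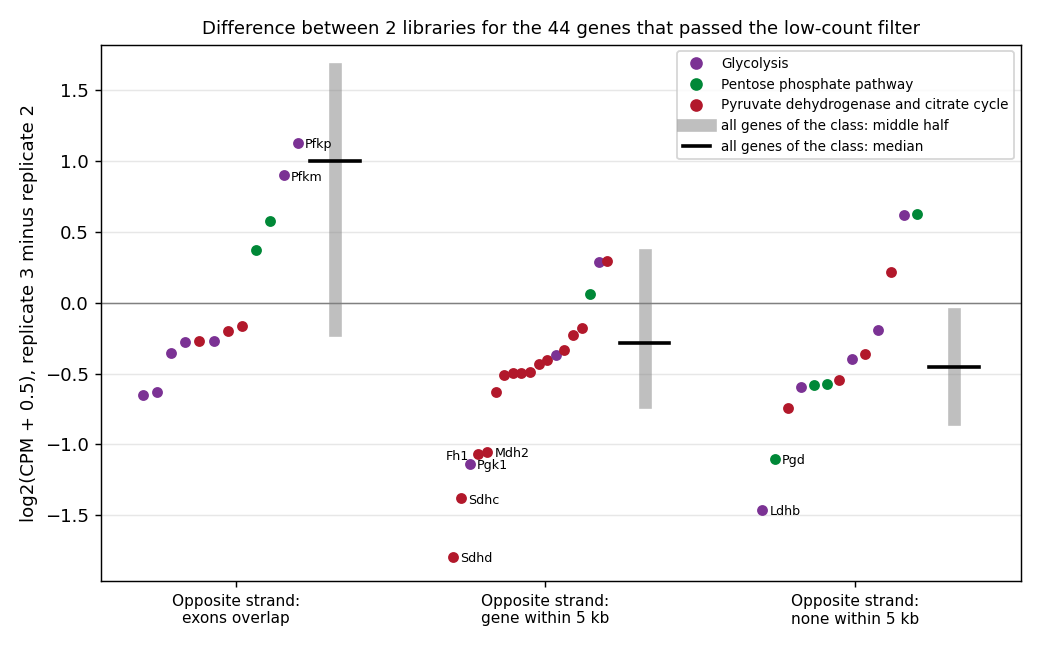
Difference of log2(CPM + 0.5), replicate 3 minus replicate 2, for the 44 tested genes, sorted within the 3 classes of opposite-strand annotation and coloured by pathway. Grey bars and black lines give the middle 50% and the median of all tested genes of the class. Pfkp and Pfkm lie near the class median of 1.00 and the other exon overlap genes below it.

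Other genes of the pathways were taken from a list of 62, of which 61 were found, 33 reached 1 TPM in every library and 13 had no count. Of the further glycolytic isoenzymes, Hkdc1 and the testis forms Pgk2 and Ldhc had no count, with a floor of 3 counts per library. Pgam2, the muscle mutase, stood at 104 ± 27.9 TPM, from 124, 166 and 168 counts, with a log2 difference of 1.55 between replicates 3 and 2. Gapdhs, the sperm form, followed at 82.3 ± 9.81 TPM with exon overlap and a difference of 1.48. The median was −0.28 over tested genes of the class of Pgam2, with an opposite gene within 5 kb, and 1.00 over those with exon overlap. Adpgk, which makes glucose 6-phosphate with ADP, stood at 18.4 ± 5.75 TPM with exon overlap.

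Of the regulators of glycolytic flux, Pfkfb2 (exon overlap) stood at 18.2 ± 5.65 TPM, Pfkfb3 at 7.04 ± 4.23 and Tigar (exon overlap) at 4.98 ± 4.43, while Fbp1 and Fbp2 of gluconeogenesis had 0 counts. Around the pentose phosphate pathway, the ribokinase gene Rbks stood at 22.04 ± 7.95 TPM and the phosphoribosyl pyrophosphate synthetase genes Prps2 and Prps1 at 20.9 ± 11.6 and 12.01 ± 8.40, and Tktl2 had 0 counts. Around the citrate cycle, Acly, which splits exported citrate, stood at 46.7 ± 20.95 TPM and Me2, a mitochondrial malic enzyme, at 40.4 ± 22.3 TPM. Me1, Me3, Pdha2 and Mdh1b had 0 counts.

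At the step from pyruvate to acetyl-CoA, Pdk1, a kinase that inhibits pyruvate dehydrogenase, had 709, 1359 and 204 counts and stood at 51.7 ± 35.9 TPM, and Pdk4, the fasting-induced kinase, had 0 counts. The phosphatase regulator gene Pdpr and the pyruvate carrier gene Mpc1, both with exon overlap, stood at 29.4 ± 3.28 and 8.26 ± 0.496 TPM. Of the assembly factors of succinate dehydrogenase, Sdhaf1 (exon overlap) stood at 26.1 ± 4.10, Sdhaf2 at 14.0 ± 6.54 and Sdhaf4 (exon overlap) at 8.79 ± 7.74 TPM. Of the transcriptional regulators Myc stood at 27.8 ± 11.8, Esrra (exon overlap) at 19.3 ± 4.51 and Hif1a (exon overlap) at 17.95 ± 10.6 TPM, and Ppargc1a had 0 counts. Over the list, 15 of the 29 tested genes differed between libraries, against 62.4% of all tested genes, and 9 of the 29 were called and lowest in replicate 3, against 27.3%.

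Hif1a and Myc encode factors known to bind the glycolytic genes at ACGTG and CACGTG, so the 250 bases before each gene's RefSeq start (GRCm38.p6) were read, which were found for 45 of the 47 genes. The RefSeq start can lie inside the span that was counted, and 8 of the 45 windows, that of Ldha among them, lay wholly and 15 partly inside it. ACGTG, searched on both strands and contained in CACGTG, occurred in 11 of the 45 windows (24.4%), against 16.5% of 27025 windows in the table. CACGTG occurred in 2 of the 45 (4.44%), Ldha and Pfkm, against 6.03%. The windows of both lactate dehydrogenase genes and of Hk2 are shown, with every match in capitals. These were chosen because Ldha was the highest and Hk2 the lowest of the 47 by mean TPM. The windows are chr7:46845554-46845803 on the plus strand for Ldha, chr6:142507958-142508207 on the minus strand for Ldhb and chr6:82774455-82774704 on the minus strand for Hk2.
Ldha: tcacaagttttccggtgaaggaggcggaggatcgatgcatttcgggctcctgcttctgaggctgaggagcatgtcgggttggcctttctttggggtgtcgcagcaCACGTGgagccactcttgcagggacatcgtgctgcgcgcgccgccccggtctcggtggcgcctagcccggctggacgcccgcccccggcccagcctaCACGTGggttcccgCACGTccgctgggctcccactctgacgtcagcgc
Ldhb: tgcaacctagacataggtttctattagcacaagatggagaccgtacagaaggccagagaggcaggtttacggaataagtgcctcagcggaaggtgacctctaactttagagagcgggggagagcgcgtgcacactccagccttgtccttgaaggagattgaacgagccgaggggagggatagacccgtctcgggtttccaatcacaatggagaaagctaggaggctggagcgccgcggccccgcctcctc
Hk2: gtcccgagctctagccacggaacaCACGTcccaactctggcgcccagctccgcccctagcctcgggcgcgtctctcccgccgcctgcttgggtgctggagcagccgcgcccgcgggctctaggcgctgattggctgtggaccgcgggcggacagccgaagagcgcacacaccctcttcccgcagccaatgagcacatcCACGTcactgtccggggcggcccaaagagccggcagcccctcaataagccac
On both strands together Ldha held 5 matches of ACGTG, Hk2 held 2 and Ldhb held 0. The 2 CACGTG sites of Ldha read the same on both strands, and each gave a match on both. Its matches therefore exceed its separate sites. Ldha was at 51.8 TPM or more and Hk2 at 3 counts or fewer in every library. A match of letters is a description of the window and not a bound site.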

How the data were processed

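The authors counted fragments per gene with featureCounts 1.4.6-p4 on the GENCODE M13 annotation, with strand setting 1 and both ends mapped, per the file headers, with the mm10 assembly named by the labels. The sources used here do not give the aligner's version, any trimming or the strand of the kit, and the labels link a library protocol named for polyA RNA. The deposited values were raw counts, and the summed exon length of the deposited tables gave another column, in bases. Symbols and biotypes came from GENCODE M21 by identifier (50376 of 50600 named). TPM were computed here from counts and summed exon length, and CPM with TMM sizes from edgeR 4.0.16, and DESeq2 1.42.0 gave alternative size factors. Exon overlap on the other strand was found with bedtools 2.31.1. The variation test was a Poisson chi-square test with 2 degrees of freedom over the 10662 genes kept by filterByExpr, checked on simulated counts. A floor of 3 counts was used, and the pseudocounts were 0.1 for TPM and 0.5 for CPM. The quasi-likelihood test had no contrast to compare in 1 group. The genes and lists were chosen with earlier results of these data known. All listed genes were named, and of the other pathway genes the highest 3 per sub-list and those with 0 counts. Some genes that the rule would name are not reported here. The comparisons of coding sequences, promoters and pathway differences were chosen after seeing the data. No molecular identifiers mark PCR copies, and so the intervals and floors speak of counting error alone.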

Additional observations from a re-analysis of the deposited data

How the results depend on the processing

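Depth limits the low genes, since 5 counts in all stand behind Hk2 and 12 behind Aldoc. Of the 44 tested genes 22 differed between libraries (62.4% of all genes), and 36 with total counts as library size (82.5% of all genes). With TMM over genes without exon overlap 14 did (53.6%). That change moved the median of replicate 3 minus replicate 2 over all genes from −0.11 to 0.21 on the log2 scale. Leaving out a replicate gave 20 of 44 without replicate 1 (60.8% of all genes), 11 of 42 without replicate 2 (49.7%) and 8 of 44 without replicate 3 (28.1%). The 44 genes at 1 TPM became 24 at 10 TPM. The median log2 level of glycolysis was 3.85, and 4.97 on CPM without length, 5.17 with TPM over protein-coding genes outside the mitochondrial genome and 3.08 without exon overlap genes. For the pentose phosphate pathway it was 3.99, and 5.06, 5.32 and 3.54 under the same settings, and for the citrate cycle 4.51, and 5.84 over protein-coding genes. The cause of these moves was not tested beyond the fewer genes that settings keep. On CPM glycolysis minus the citrate cycle reversed to 0.040 and the pentose phosphate pathway minus the citrate cycle to 0.12. Glycolysis minus the pentose phosphate pathway ranged from −0.31 to 0.014 with a replicate left out, reversed without replicate 3. With the longest coding transcript as length that difference was −0.49, and the pentose phosphate pathway minus the citrate cycle was −0.10. Pfkl over Pfkm reversed to 0.56 on counts without length and 0.19 with the longest coding transcript, and Mdh1 over Mdh2 to −0.51 with the latter length. The other 10 pairs kept their sign under every setting tried. No paired analysis was possible because there was 1 group.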
